A study of Mus musculus with 14 samples.

Results

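Mitochondrial fatty acid oxidation is represented here by 10 mouse genes, Cpt1a, Cpt2, Acadl, Acadm, Acadvl, Hadha, Hadhb, Etfa, Etfdh and Decr1. Their H3K9ac was read from every peak that overlapped the RefSeq span of one of these genes or the 10 kb on either side of it. These 10 are among 21883 protein-coding genes with a position in the annotation, of which 12416, the 10 included, had a peak within that window in all 12 libraries. Merging overlapping peaks of the 12 lists gave 57979 regions, of which 61 belonged to these genes. Of the 12375 regions found in all 12 lists, 15 belonged to these genes, and 9 of the 15 lay at a gene start (Hadha and Hadhb share 1 start region). Tag tests were possible only for regions in all 12 lists, because a list gives no count for a region it does not call.

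The libraries are ChIP-seq for histone H3 acetylated at lysine 9 (AcH3K9 antibody) from regenerating liver, and 6 are titled d22 and 6 pbs. All come from C57BL6/J males of 2 to 3 months whose liver was taken 12 h after partial hepatectomy. The study's stated aim was to see what delaying the fall in blood glucose after the operation does to this mark. Titles and treatment labels contradict each other: the d22 libraries carry the vehicle label (PBS at 1/2 strength), whereas the pbs libraries carry the dextrose label (22.5% in that vehicle). Groups are by title throughout, and which title stands for which treatment cannot be told apart. Whether each library is a separate mouse is not stated, and the p-values therefore cover the spread among these libraries, which may be technical. The 2 pooled inputs, 1 per title group, both carry the dextrose label, and they were not analysed here.

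Fatty acids enter the mitochondrion as carnitine esters and are shortened there in repeated cycles of dehydrogenation, hydration, a second dehydrogenation and thiolysis. The electrons pass through electron transfer flavoprotein to the respiratory chain, and in hepatocytes much of the acetyl-CoA becomes ketone bodies. The nuclear receptor PPAR-alpha drives these genes in fasted liver, and after partial hepatectomy hepatocytes fill with fat for a time while blood glucose is low. H3K9ac marks active promoters and enhancers.

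Libraries held 6343891 to 13084426 tags after the caller's filtering in d22 and 6385610 to 13259411 in pbs. Peak numbers were 26352 to 44585 in d22 and 26377 to 30780 in pbs, and d22 4, the shallowest, had the 44585. Peaks held 16.4% to 23.8% of tags in d22 and 19.9% to 26.6% in pbs. The median fold enrichment of a library's peaks was 12.3 to 15.1 in d22 and 15.1 to 18.7 in pbs, each taken against 1 input shared by the whole title group. Hepatocyte markers fitted the labelled tissue, since 10 of 10 had peaks in all 12 lists, whereas the neutrophil markers S100a8, S100a9 and Ly6g had a peak in no list. The fourth neutrophil marker, Mpo, had a peak in some lists only (0% to 0.00142% of window tags in d22, 0% in pbs). Of other cell types, peaks in all 12 lists were found for 5 of 6 endothelial markers (0.0126% to 0.0243% of window tags in d22, 0.00923% to 0.0172% in pbs), 1 of 7 macrophage markers (0.0130% to 0.0181% in d22, 0.0136% to 0.0167% in pbs), 2 of 5 lymphocyte, 1 of 5 cholangiocyte and 0 of 6 stellate cell markers. In bulk liver, fewer cells carrying the mark and less of the mark per cell cannot be told apart.

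The promoters shown are those of the genes on which the comparisons turn, so that the start regions can be read against their sequence. RefSeq promoter windows of GRCm38.p6 (mm10), 250 bases before to 50 after the start, were matched for 9 of the 10 genes, Decr1 being the other. The windows printed are Cpt1a on the plus strand (chr19:3323051-3323350), Acadl on the minus strand (chr1:66863260-66863559), Acadm on the minus strand (chr3:153944594-153944893), Hadhb on the plus strand (chr5:30155003-30155302) and Etfa on the minus strand (chr9:55512194-55512493). Capitals mark a match on either strand to the nuclear receptor half-site AGGTCA, the Sp1 box GGGCGG, the NF-Y box CCAAT or the NRF1 motif GCGCATGCG, or to the direct repeat AGGTCANAGGTCA with up to 2 mismatches.
Cpt1a: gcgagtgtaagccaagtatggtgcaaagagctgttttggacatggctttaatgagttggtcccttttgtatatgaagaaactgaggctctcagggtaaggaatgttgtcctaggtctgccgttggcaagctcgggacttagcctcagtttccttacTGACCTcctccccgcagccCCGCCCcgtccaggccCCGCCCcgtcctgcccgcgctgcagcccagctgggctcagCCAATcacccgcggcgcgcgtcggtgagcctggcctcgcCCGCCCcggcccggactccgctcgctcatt
Acadl: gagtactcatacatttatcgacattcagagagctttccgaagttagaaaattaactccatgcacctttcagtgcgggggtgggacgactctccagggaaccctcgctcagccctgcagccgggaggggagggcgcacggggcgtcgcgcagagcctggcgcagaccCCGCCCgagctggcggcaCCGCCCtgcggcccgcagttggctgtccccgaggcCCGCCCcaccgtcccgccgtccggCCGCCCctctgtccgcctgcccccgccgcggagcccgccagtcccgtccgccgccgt
Acadm: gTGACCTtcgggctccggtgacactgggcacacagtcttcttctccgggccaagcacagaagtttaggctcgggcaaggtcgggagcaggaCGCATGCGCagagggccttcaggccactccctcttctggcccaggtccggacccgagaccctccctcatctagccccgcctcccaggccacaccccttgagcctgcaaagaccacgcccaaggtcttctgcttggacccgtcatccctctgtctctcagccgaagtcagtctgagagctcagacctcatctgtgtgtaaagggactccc
Hadhb: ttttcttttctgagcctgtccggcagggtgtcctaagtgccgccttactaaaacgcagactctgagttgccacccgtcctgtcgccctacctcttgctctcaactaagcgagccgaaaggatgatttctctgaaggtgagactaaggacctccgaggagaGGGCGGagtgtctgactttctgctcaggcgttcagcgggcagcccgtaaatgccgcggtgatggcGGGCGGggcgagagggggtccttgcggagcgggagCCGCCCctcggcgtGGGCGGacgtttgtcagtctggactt
Etfa: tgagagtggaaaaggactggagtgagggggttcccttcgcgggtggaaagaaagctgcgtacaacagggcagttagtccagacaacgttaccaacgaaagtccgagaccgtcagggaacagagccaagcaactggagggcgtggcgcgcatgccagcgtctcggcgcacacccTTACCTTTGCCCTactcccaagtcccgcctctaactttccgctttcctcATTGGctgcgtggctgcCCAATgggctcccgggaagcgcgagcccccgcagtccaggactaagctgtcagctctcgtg

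All 9 windows but that of Acadvl (50.7% GC) were richer in G and C than the median of 52.7% over the 32851 promoters of the table, with 70.3% in Acadl at the top. They held 9 to 34 CG dinucleotides, against a median of 7. GGGCGG, the box bound by Sp1 and KLF factors, was in 6 of the 9 (Acadl, Etfdh, Cpt2, Hadha, Hadhb and Cpt1a) and in 35.7% of all promoters. Acadl and Hadhb each held it at 4 positions. CCAAT, bound by NF-Y, was in Etfdh, Etfa and Cpt1a (37.4% of all promoters). The NRF1 motif GCGCATGCG, which is almost its own reverse complement, was in Etfdh and Acadm (1.75% of all promoters). The nuclear receptor half-site AGGTCA was in Acadm, Acadvl and Cpt1a (16.3%). AGGTCANAGGTCA, the direct repeat of that half-site with 1 base between that PPAR-alpha binds with RXR, matched with up to 2 mismatches in Etfa (3.86%). No match to TCAAGGTCA (0.423% of all promoters), CACGTG (7.15%) or TATAAA (13.6%) was found in the 9 windows. A match describes letters only, and the factors were not measured.

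Across the start regions, the tag values were lower in d22 at 9 of 9, with a median log2 change of -0.23 (d22 minus pbs), against a median of 0.0032 and 49.1% negative values over all 12375 regions. The genes were chosen with earlier results of these data known. By edgeR's quasi-likelihood test with Benjamini-Hochberg adjustment over all regions, 0 of the 9 passed an adjusted p of 0.05, and 5 had an unadjusted p under 0.05. The background was 1.01% of all regions called. DESeq2 on the same counts called 2 of the 9, Acadl (adjusted p = 0.0246) and Decr1 (adjusted p = 0.0174), and 272 of all 12375 regions. Summed, the 9 start regions took 0.0958% to 0.115% of the tags in tested regions in d22 libraries and 0.117% to 0.148% in pbs libraries. Like sums over other regions were not taken, so how often such ranges lie apart is not known. Taken singly, the title groups were apart only at Acadl. The 10 hepatocyte markers summed to 0.181% to 0.240% of window tags in d22 and 0.230% to 0.260% in pbs, and their part in the result was not tested. The values rest on 69 to 842 tags per start region and library, and CPM here is relative to the tags in the tested regions, after TMM scaling.

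**Figure D1:**
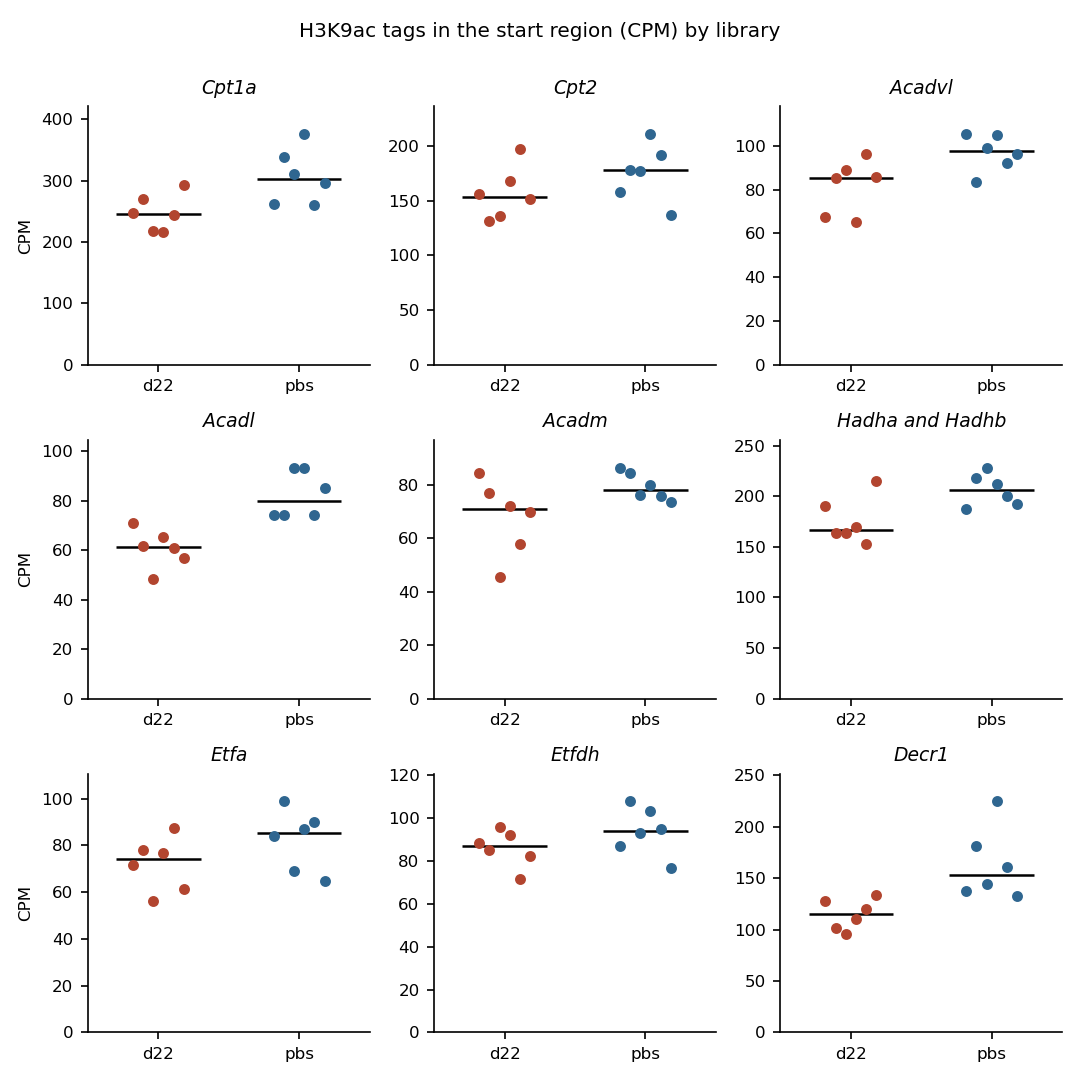
H3K9ac tags in the 9 start regions as CPM (linear axis from 0, scaled per panel), 1 point per library, with d22 left of pbs and a bar at each median. Medians are lower in d22 in each panel, and the groups are apart only for Acadl (48.3 to 70.9 CPM in d22, 74.3 to 93.4 CPM in pbs).

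Carnitine entry is the first step. Cpt1a encodes the liver carnitine palmitoyltransferase of the outer mitochondrial membrane, the malonyl-CoA-inhibited step that limits the rate. Its start region (chr19:3317877-3327313) held 216 to 293 CPM in d22 libraries (median 246) and 261 to 376 CPM in pbs libraries (median 303). The ranges overlap, with 4 of 6 d22 libraries below the lowest pbs library and 6 of 6 below the pbs median. The log2 change was -0.30 (SE 0.10), or -18.9%, with an edgeR adjusted p of 0.244. Cpt2, the carnitine palmitoyltransferase of the inner membrane that regenerates acyl-CoA, held 131 to 197 CPM in d22 (median 153) and 137 to 211 CPM in pbs (median 178) at its start region (chr4:107919617-107924081). Its groups overlap widely, and the log2 change was -0.16 (SE 0.11, edgeR adjusted p = 0.665).

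Cpt1a also carried the mark in its interior. A region beginning 4518 bp past the start (chr19:3327819-3332379) held 12.0 to 26.6 CPM in d22 (median 15.1) and 15.3 to 55.5 CPM in pbs (median 33.4). Here 3 of 6 d22 libraries lay below the lowest pbs library, and the log2 change was -1.01 (SE 0.30, edgeR adjusted p = 0.147). The next region (chr19:3332406-3338277) held 16.9 to 73.0 CPM in d22 (median 39.2) and 36.9 to 87.6 CPM in pbs (median 65.9). Its log2 change was -0.58 (SE 0.32, edgeR adjusted p = 0.555), so neither interior region passed. Of the 14 Cpt1a regions, 9 more lay inside the gene and were missing from at least 1 list, as far as 53815 bp past the start.

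The acyl-CoA dehydrogenases start each cycle, and those of long, medium and very long chains are Acadl, Acadm and Acadvl. Acadl (start region chr1:66860712-66864588) held 48.3 to 70.9 CPM in d22 (median 61.4) and 74.3 to 93.4 CPM in pbs (median 79.7). Every d22 library was below every pbs library, as at 0.743% of all regions. The log2 change was -0.44 (SE 0.11), or -26.1%, with an edgeR adjusted p of 0.0714. Acadm (chr3:153942254-153945557) held 45.6 to 84.4 CPM in d22 (median 71.0) and 73.4 to 86.4 CPM in pbs (median 78.1), a log2 change of -0.23 (SE 0.13, edgeR adjusted p = 0.545). The d22 libraries of Acadm were spread widely, and 4 of 6 lay below the lowest pbs library. Acadvl (chr11:70012740-70015744) held 65.5 to 96.3 CPM in d22 (median 85.5) and 83.4 to 106 CPM in pbs (median 97.6), a log2 change of -0.24 (SE 0.10, edgeR adjusted p = 0.410).

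Hadha and Hadhb encode the alpha and beta subunits of the mitochondrial trifunctional protein, which carries out the later steps of the cycle on long chains. Their starts face away from each other 273 bp apart, and 1 region covers both (chr5:30153203-30157808). It held 153 to 215 CPM in d22 (median 167) and 187 to 228 CPM in pbs (median 206). Apart from d22 6 (215 CPM) and d22 1 (191 CPM), the d22 libraries were below the lowest pbs library. The log2 change was -0.23 (SE 0.091, edgeR adjusted p = 0.350).

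Electron transfer flavoprotein takes the electrons from the dehydrogenases, and Etfa encodes its alpha subunit. The Etfa start region (chr9:55509909-55512987) held 56.0 to 87.3 CPM in d22 (median 74.3) and 64.7 to 98.9 CPM in pbs (median 85.4), a log2 change of -0.20 (SE 0.13, edgeR adjusted p = 0.622). Etfdh encodes the oxidoreductase that passes these electrons to ubiquinone. At its start region (chr3:79626252-79630326) were 71.6 to 96.1 CPM in d22 (median 87.0) and 77.0 to 108 CPM in pbs (median 93.9). This was the smallest change of the 9, at -0.12 (SE 0.10, edgeR adjusted p = 0.722), and both genes had broad overlap between groups.

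Decr1 encodes the 2,4-dienoyl-CoA reductase needed to oxidize polyunsaturated chains. Its start region was taken as the region with the most tags in the gene span, at the upper end of that span (chr4:15941917-15946138). It held 95.7, 101, 110.0, 120.0, 128 and 133 CPM in the d22 libraries and 133, 138, 145, 161, 181 and 224 CPM in the pbs libraries. The groups meet at 1 point, where pbs 6 (132.8 CPM) lies just under d22 6 (133.2 CPM). The log2 change was -0.51 (SE 0.13), or -29.6%, the largest of the 9, with an edgeR adjusted p of 0.0714. A second Decr1 region inside the gene (chr4:15936742-15939383) held 12.5 to 29.1 CPM in d22 and 14.9 to 35.8 CPM in pbs, with a log2 change of -0.17 (SE 0.26, edgeR adjusted p = 0.881).

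Per length of called peak, Cpt2 was highest with 53.8 ± 9.86 CPM per kb (SD over the 12 libraries), followed by Hadha and Hadhb with 49.5 ± 6.78, Acadvl with 44.3 ± 7.09, Decr1 with 43.4 ± 8.41 and Cpt1a with 39.9 ± 5.85 CPM per kb. Etfa had 36.4 ± 5.06, Acadm 34.0 ± 7.28, Etfdh 29.0 ± 3.71 and Acadl 27.3 ± 3.93 CPM per kb. Each step in this order is smaller than the larger SD of the genes it separates, whereas Cpt2 and Acadl at the ends differ by more than their SDs. All genes were read in the same 12 libraries, so these SDs include any spread that genes share. Differences between genes within a library were not tested. Cpt1a leads in total tags because its region is long.

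The called lengths were lower in d22 as well. The Cpt1a start region had 5273 to 7652 bp of called peak in d22 libraries (median 6101) and 6752 to 8474 bp in pbs libraries (median 7841). The upstream reach of its peaks was 3469 to 5424 bp from the start in d22 (median 3975) and 5125 to 5405 bp in pbs (median 5324.5), and 4 of 6 d22 libraries reached less far than every pbs library. In pbs this reach was set by a separate weak peak of 28 to 54 tags. That peak was also called in d22 2 (32 tags) and d22 4 (58 tags), but not in the 4 others. How often such reaches differ over all regions was not counted. In Decr1 the called length was 1947 to 3212 bp in d22 (median 2895.5) and 3134 to 4165 bp in pbs (median 3839.5). Acadl had 1900 to 2607 bp in d22 (median 2359.5) and 2451 to 3527 bp in pbs (median 2989). The log2 changes in length were -0.30 for Cpt1a (SE 0.10), -0.46 for Decr1 (SE 0.13) and -0.40 for Acadl (SE 0.11). Values were lower in d22 at 9 of 9 start regions (median -0.22), against 70.9% of all regions (median -0.078). Limma called 0 of the 9, with 4 at an unadjusted p under 0.05, and 0% of all regions, and no other tool was run on lengths.

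**Figure D2:**
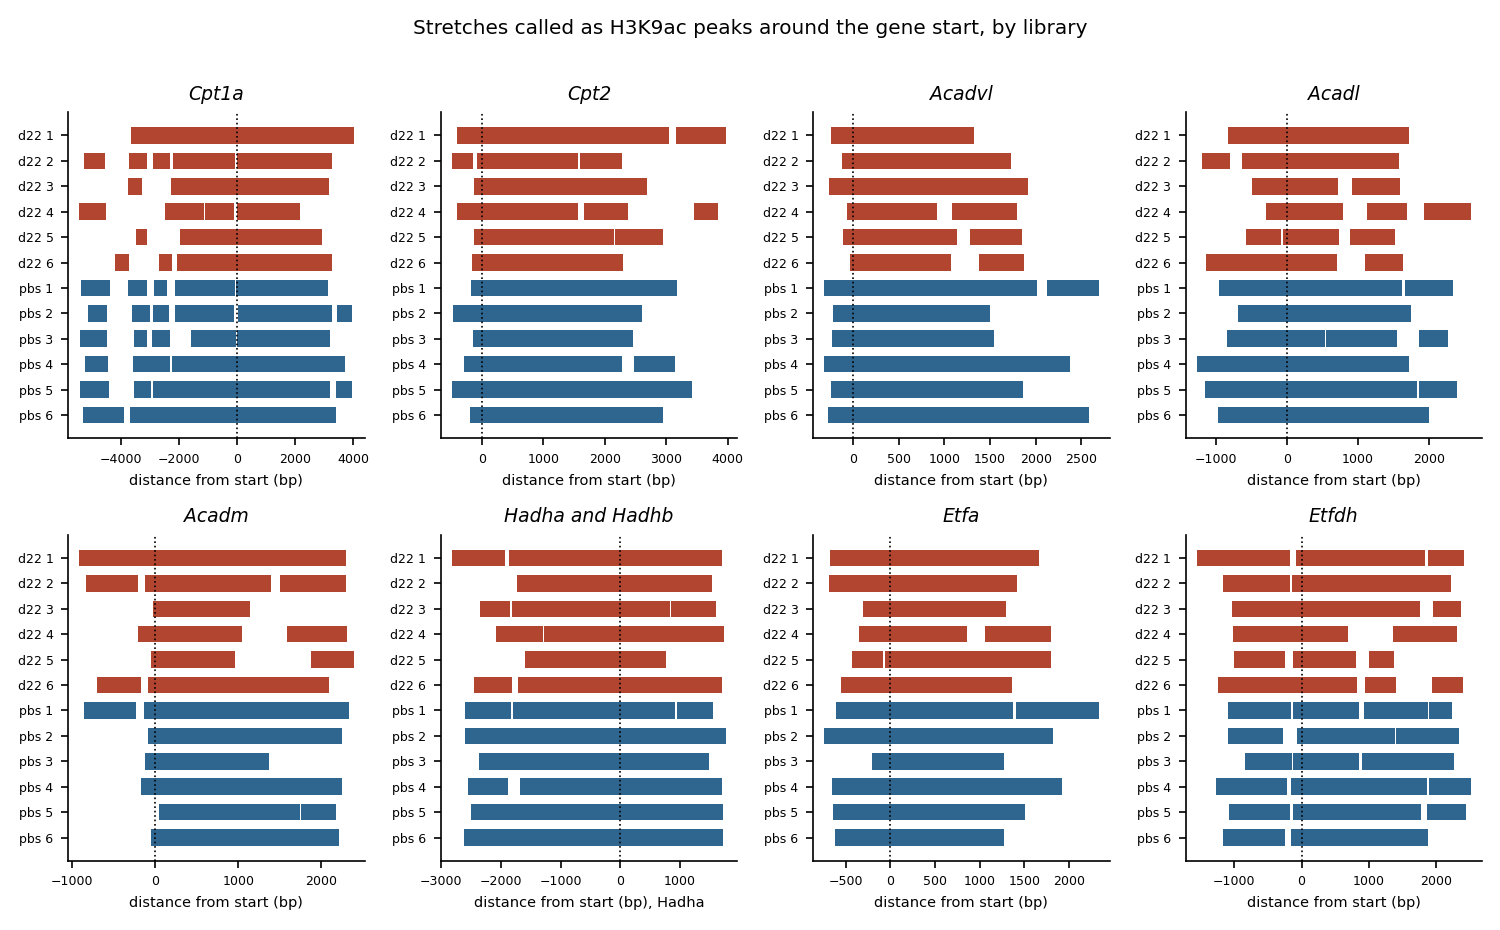
Stretches called as peaks in the start regions of 8 start regions that hold a RefSeq promoter, in bp from the start (dotted line, downstream to the right, Hadha's own start for the shared region), 1 row per library with d22 above pbs. Cpt1a peaks end closer to the start on the upstream side in 4 of 6 d22 libraries (3469 to 4192 bp) than in any pbs library. In these 4 a separate weak peak further upstream is not called.

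Tags per kb of called peak, by contrast, lay around 0. Over the 9 start regions the log2 change ran from -0.17 (Acadm) to 0.11 (Acadvl), with a median of -0.030 against 0.089 over all regions. Values were negative at 6 of the 9 (66.7%), against 23.3% of all regions. Limma called 0 of the 9, with 0 at an unadjusted p under 0.05, and 0.0404% of all regions. In Cpt1a the density was 32.5 to 46.7 CPM per kb in d22 (median 38.3) and 31.5 to 46.4 in pbs (median 40.0). Decr1 had 32.4 to 55.8 CPM per kb in d22 (median 41.3) and 32.4 to 55.6 CPM per kb in pbs (median 43.0). Cpt1a, Acadl, Acadvl, Hadha and Hadhb, Etfa, Etfdh and Decr1 had length values further below 0 than their density values. In Acadm the density value (-0.17) was further from 0 than the length value (-0.077), and in Cpt2 they were alike (-0.072 in density, -0.087 in length). With the median of all regions subtracted, density was lower than length in Acadm (-0.26 and 0.0015) and Cpt2 (-0.16 and -0.0087). The same held in Etfa (-0.14 and -0.063) and Etfdh (-0.077 and -0.052). In Cpt1a, Acadl, Acadvl, Hadha and Hadhb and Decr1, length stayed the lower. Length and tags come from the same calls and are not independent measures, and whether depth or input has a part in the shorter calls was not tested.

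**Figure D3:**
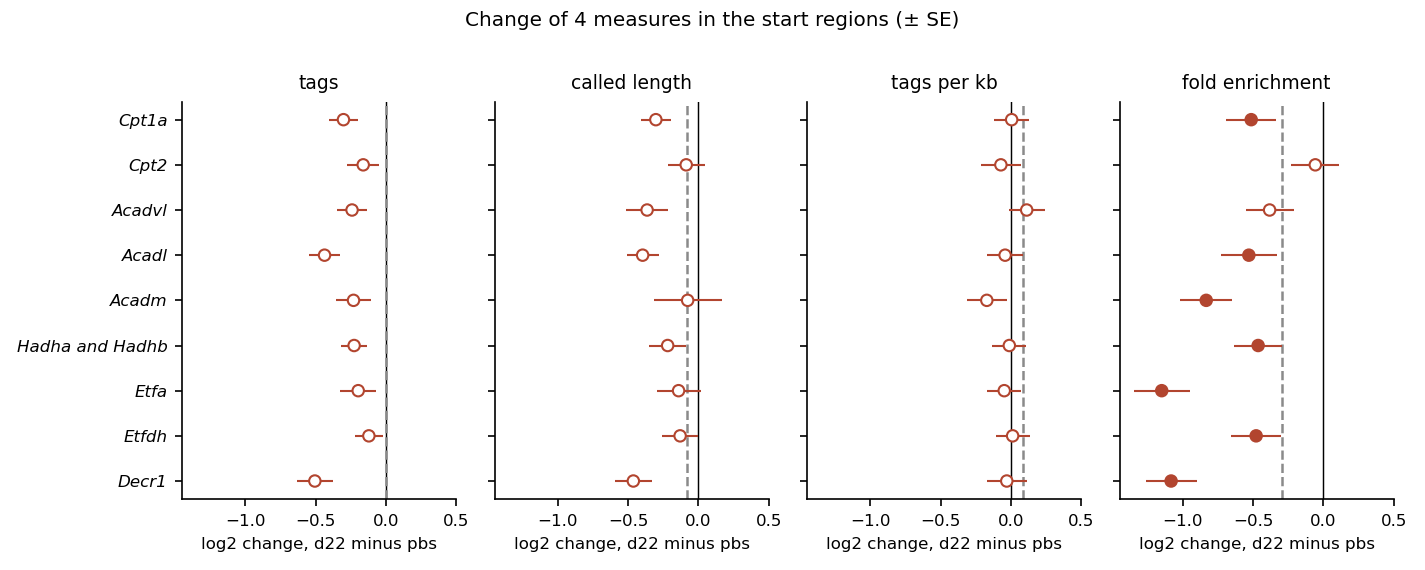
Log2 change (d22 minus pbs, ± SE) of tags, called length, tags per kb and highest fold enrichment in the 9 start regions, filled where the adjusted p is under 0.05, with the median of all 12375 regions dashed. Tags and length lie left of 0 at 9 of 9, density lies around 0, and fold enrichment is filled for 7.

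Fold enrichment, the peak caller's ratio of tags over the local background, was the measure that passed. Limma called 7 of the 9 start regions lower in d22 and 0 higher, against 20.2% of all regions called, whose median was itself -0.30. Etfa had fold enrichments of 15.6 to 24.2 in d22 (median 17.7) and 29.5 to 50.5 in pbs (median 44.1). Decr1 had 22.6 to 49.9 in d22 (median 33.3) and 57.5 to 98.1 in pbs (median 66.4). In both, every d22 library was below every pbs library, as at 5.82% of all regions. The log2 changes were -1.15 for Etfa (SE 0.20, limma adjusted p = 3.17e-05) and -1.08 for Decr1 (SE 0.18, limma adjusted p = 1.97e-05).

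Acadm fell by 0.83 (SE 0.19, limma adjusted p = 0.00099), with fold enrichments of 23.8 to 45.8 in d22 (median 29.5) and 42.0 to 72.7 in pbs (median 52.7). Smaller losses passed at Acadl, which fell by 0.53 (limma adjusted p = 0.0499), and at Cpt1a, which fell by 0.51 (limma adjusted p = 0.0329). Etfdh fell by 0.48 (limma adjusted p = 0.0495) and the Hadha and Hadhb start by 0.46 (limma adjusted p = 0.0433). Acadvl (-0.38, limma adjusted p = 0.0945) and Cpt2 (-0.058, limma adjusted p = 0.810) did not pass. With each library centred on its median over all regions, Etfa (-0.85), Decr1 (-0.78) and Acadm (-0.53) passed and the other 6 did not. Centring called 1222 of all 12375 regions, 554 of them lower in d22 and 668 higher. Leaving out d22 3, d22 5, d22 6, pbs 1, pbs 3 or pbs 6 also left 3 of the 9. Etfa, Decr1 and Acadm passed in 15 of 15 alternatives, Cpt1a in 6, Acadl in 5, the Hadha and Hadhb start in 4 and Etfdh in 3. Because every d22 library was set against 1 input and every pbs library against another, input and group cannot be told apart in this measure.

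**Figure D4:**
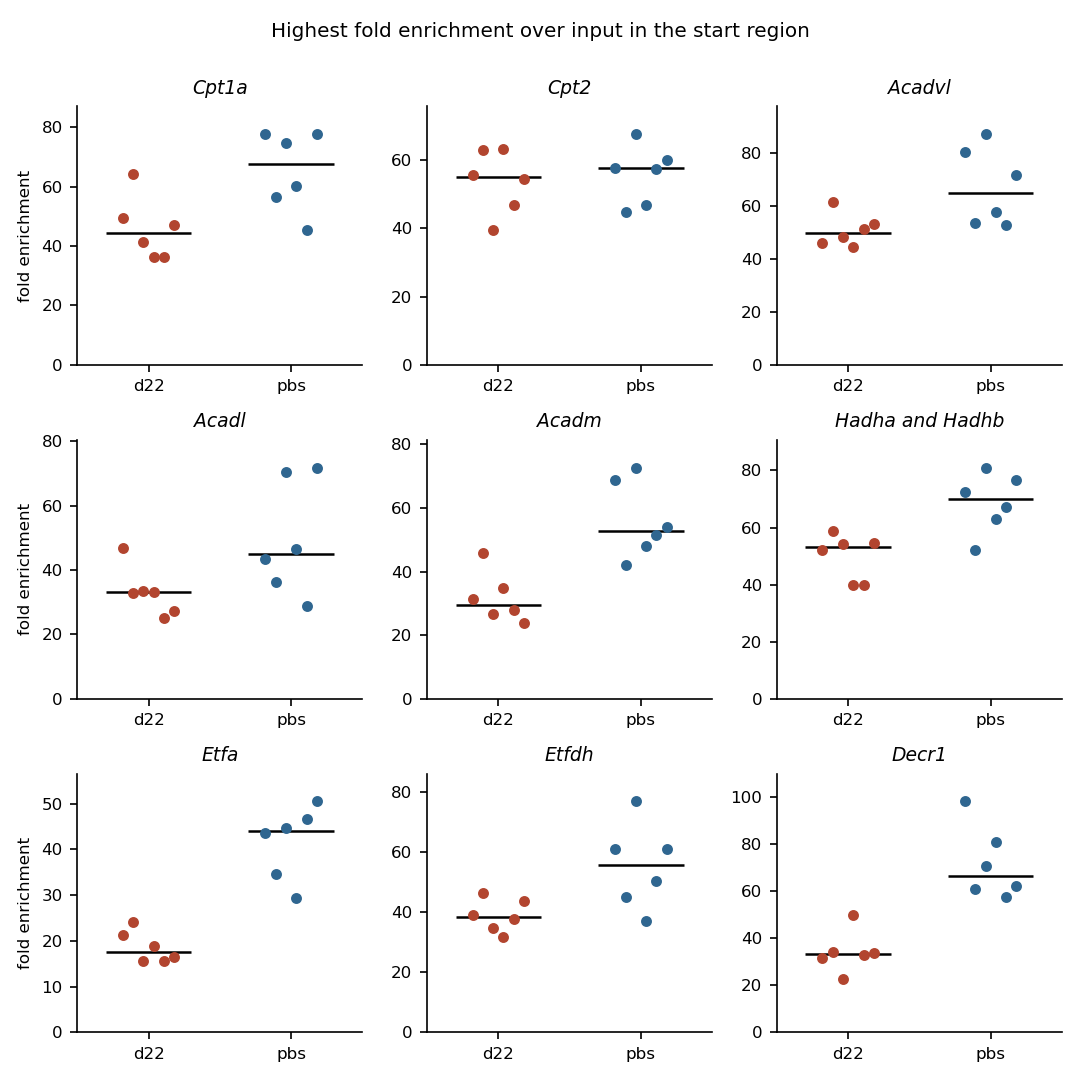
Highest fold enrichment over input among the peaks of each start region (linear axis from 0, scaled per panel), 1 point per library, d22 left of pbs, with a bar at each median. The groups are apart for Etfa (15.6 to 24.2 in d22, 29.5 to 50.5 in pbs) and Decr1 (22.6 to 49.9 in d22, 57.5 to 98.1 in pbs), and overlap in the other 7 panels.

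Summed over the whole 10 kb windows, tag values were lower in d22 for 10 of 10 genes, against 49.2% of all 12416 windows. The median log2 change was -0.30, against 0.0035 over all windows. The Hadha and Hadhb windows share their start region, so 1 locus counts as 2 in these and the following window counts. Acadm was above 0 with the gene span only (0.035) or 1 kb windows (0.020), and Etfdh with the gene span only (0.027). By edgeR, 0 of 10 passed, with 6 at an unadjusted p under 0.05, and 0.797% of all windows were called. Cpt1a had 154 to 223 CPM in d22 and 239 to 299 CPM in pbs, and a log2 change of -0.39 (SE 0.095, edgeR adjusted p = 0.0809). The ranges of Cpt1a do not overlap, nor do those of Acadl (28.5 to 42.0 CPM in d22, 43.1 to 55.4 CPM in pbs), with every d22 library lower as at 0.733% of all windows. The changes were -0.57 for Decr1, -0.46 for Acadl, -0.35 for both Hadha and Hadhb and -0.24 for Cpt2, and -0.10 to -0.22 for the other 4. DESeq2 called 3 windows, those of Cpt1a (adjusted p = 0.00928), Acadl (adjusted p = 0.0219) and Decr1 (adjusted p = 0.0305), and 263 of all 12416 windows. Limma called 0 of 10 for called length (5 at an unadjusted p under 0.05, 0% of all windows called) and 0 of 10 for tags per kb (0 at an unadjusted p under 0.05, 0% of all windows called). Window fold enrichment passed for 7 of 10, all lower in d22, against 23.1% of all windows, and Hadha and Hadhb among them share 1 peak and 1 value (-0.46). With each library centred on its median, 2 of 10 passed, and the share of all windows under centring is not given here. That count was 4 without d22 1, d22 3, d22 4 or d22 6, and 2 without d22 5, pbs 1, pbs 3 or pbs 6.

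Windows also take in neighbours. Just inside the 10 kb limit, the region at Rabggtb, 8422 bp from Acadm, had a tag change of -0.19 (SE 0.097), and the Dvl2 region, 8095 bp from Acadvl, had 0.0080 (SE 0.12). Just outside it, the region at Ppid, 10419 bp from Etfdh, had -0.14 (SE 0.11), and that at Phf23, 11995 bp from Acadvl, had 0.15 (SE 0.16). A region 593 bp beyond the Cpt2 span (chr4:107899414-107903389), which overlaps no annotated gene, held 14.4 to 39.8 CPM in d22 and 19.6 to 51.2 CPM in pbs, a change of -0.38 (SE 0.26, edgeR adjusted p = 0.645). The Rabggtb region held 134 to 180 CPM in d22 and 158 to 229 CPM in pbs, more than the Acadm start region. It also gave the Acadm window its fold enrichment value (-0.24, limma adjusted p = 0.262), whereas the Acadm start region had -0.83. The window values of Acadm are therefore largely those of this neighbour.

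The remaining 46 of the 61 regions were missing from at least 1 list. Of these, 27 were in a single list, 10 of them in d22 4, and their peaks held 8 to 27 tags. Among the 17 regions that could be tested for being called or not (2 to 10 lists, 16871 regions in all), 0 passed a two-sided Fisher's exact test with adjustment, 0 had an unadjusted p under 0.05, and 0% of all regions passed. The smallest p was at a weak region inside Etfa (chr9:55509085-55509817), called in 0 of 6 d22 and 4 of 6 pbs libraries (Fisher's exact p = 0.0606). With 6 libraries per group, that is the least p a region called in 4 lists can give. Regions called in 2 or 3 lists, or in 8 or more, cannot get under 0.05 either. Most of the 17 tests therefore could not pass, and they do not show that calling was alike in the groups. A region inside Hadha (chr5:30150882-30152286) was called in 3 of 6 d22 and 6 of 6 pbs libraries, whereas 1 inside Acadm (chr3:153928936-153929837) was called in 4 of 6 d22 and 1 of 6 pbs libraries. In the interior of Decr1, a region (chr4:15926081-15926782) was called in 2 of 6 d22 and 5 of 6 pbs libraries. Upstream of Acadvl, in Dlg4, a region (chr11:70018021-70019756) was called in 6 of 6 d22 and 3 of 6 pbs libraries. At these tag numbers a region that is not called may still carry the mark.

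Other genes of fatty acid uptake, activation and oxidation were taken as a list of 40, of which 39 had a window peak in all 12 lists. The list was chosen with earlier results of these data known, so its contrasts with all windows are not independent support. Cd36 was called in 2 of 6 d22 and 4 of 6 pbs libraries and was not tested. By edgeR, 4 of the 39 windows were lower in d22 and 0 higher, against the 0.797% of all windows. Values were negative for 32 of 39, against 49.2% of all windows, and the median log2 change was -0.23. Acot2, a mitochondrial acyl-CoA thioesterase, held 18.6 to 29.2 CPM in d22 (median 21.2) and 35.1 to 55.8 CPM in pbs (median 43.4), and fell by 0.98 (SE 0.15, edgeR adjusted p = 0.00566). Fabp1, the liver fatty acid binding protein, held 59.2 to 104 CPM in d22 (median 74.9) and 120.1 to 149 CPM in pbs (median 128), and fell by 0.69 (SE 0.13, edgeR adjusted p = 0.0203). In both genes every d22 library was below every pbs library, against 0.733% of all windows.

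Acsl1, the long-chain acyl-CoA synthetase that activates fatty acids, fell by 0.52 (SE 0.11, edgeR adjusted p = 0.0369), with 129 to 190 CPM in d22 and 163 to 240 CPM in pbs. Eci2, an enoyl-CoA isomerase for unsaturated chains, fell by 0.59 (SE 0.12, edgeR adjusted p = 0.0369), with 83.3 to 115 CPM in d22 and 105 to 180 CPM in pbs. At the starts of listed genes, 4 of 35 regions were called lower and 0 higher, against 1.01% of all regions called. They were those of Acot2, Fabp1, Acsl1 and Slc22a5. Slc22a5, the carnitine transporter of the plasma membrane, fell by 0.71 (SE 0.16, edgeR adjusted p = 0.0392). Leaving out d22 2, d22 5, pbs 2 or pbs 5 left 2 of the 39 windows called, and leaving out d22 6 or pbs 4 left 1. With only the 9 libraries of 49 bp tags, which leaves out pbs 1, pbs 4 and pbs 6, 0 were called by edgeR. The values were then -0.98 for Acot2 (adjusted p = 0.0537), -0.70 for Fabp1 (adjusted p = 0.130), -0.69 for Eci2 (adjusted p = 0.0583) and -0.49 for Acsl1 (adjusted p = 0.246).

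Over all windows, 49.2% of values were negative. By role, values were negative for 8 of 10 genes of uptake and activation, 5 of 7 of carnitine handling and 4 of 7 further acyl-CoA dehydrogenases with Etfb. They were also negative for 7 of 7 of the later steps and isomerases, 2 of 2 thioesterases, 4 of 4 of propionyl-CoA use and 2 of 2 of the regulators Ppara and Ppargc1a. Positive values included Acacb (0.39, SE 0.20), which makes the malonyl-CoA that inhibits carnitine entry, and Acsl3 (0.16, SE 0.12), and neither passed (edgeR adjusted p = 0.531 for Acacb and 0.698 for Acsl3). Ppara, the receptor itself, had -0.32 (SE 0.11, edgeR adjusted p = 0.236). The 10 genes of mitochondrial oxidation lay between the values of Acot2 (-0.98) and Acacb (0.39). This wide range is set by the end genes of the list, so lying within it does not liken the 10 genes to the list.

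**Figure D5:**
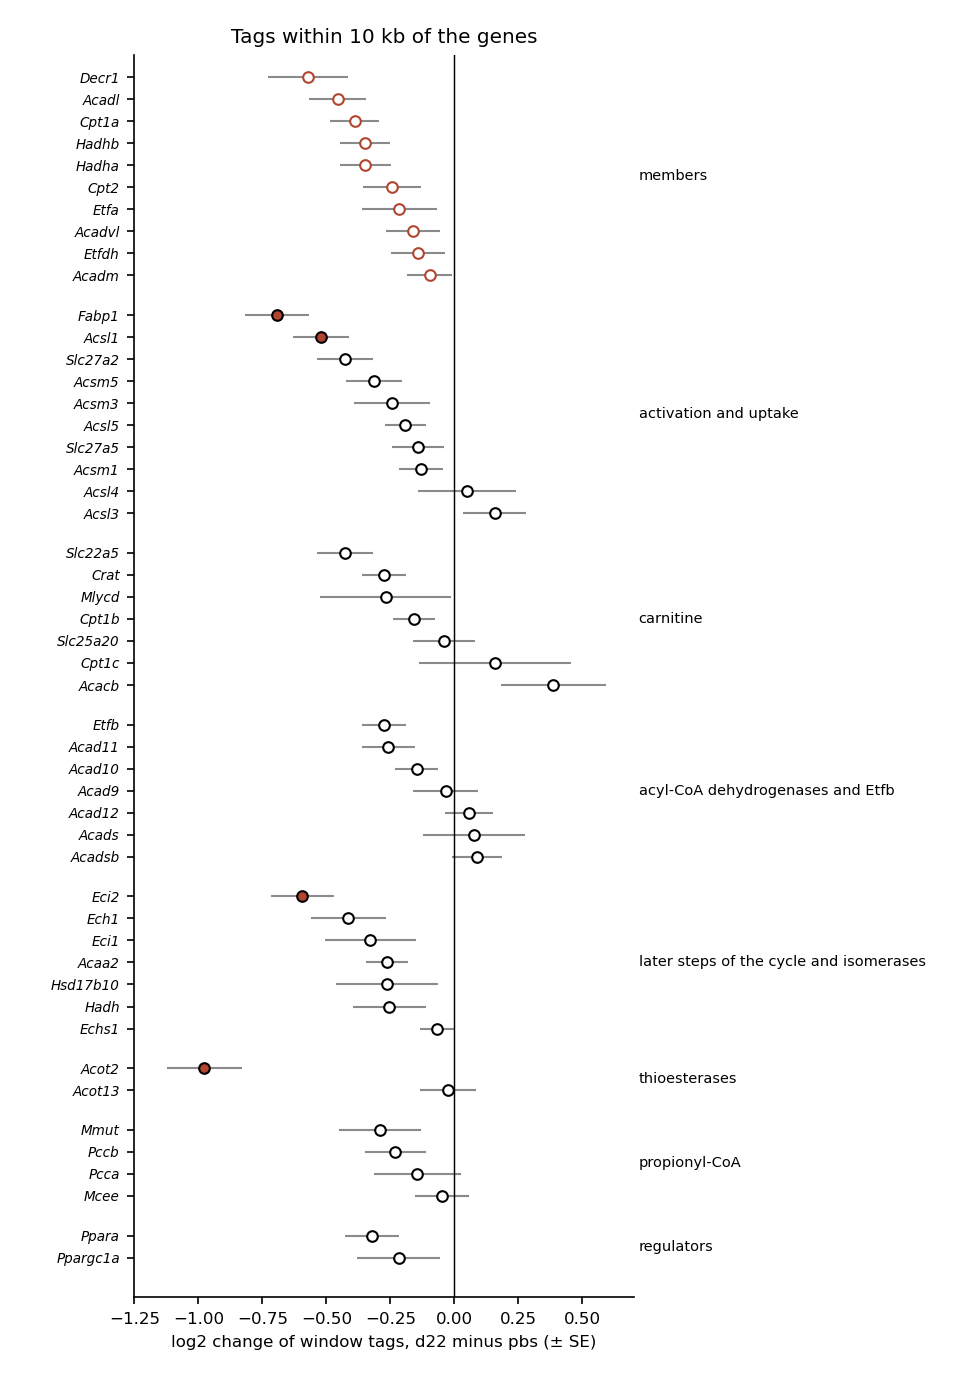
Log2 change of tags within 10 kb of each gene (d22 minus pbs, ± SE), for the 10 oxidation genes on top (red outline) and the 39 tested genes of the list by role, filled where the adjusted p is under 0.05. Filled points are Fabp1, Acsl1, Eci2 and Acot2, and 10 of 10 and 32 of 39 points lie left of 0, against 49.2% of all windows. Both sets of genes were chosen with earlier results of these data known.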

How the data were processed

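H3K9ac ChIP-seq was read from the peak table the authors deposited for each of 12 libraries. Per the submitters' processing notes, CASAVA 1.8, Novoalign, mm10 and MACS 1.4.2 were used. Per the file headers, each library was called alone against 1 input per title group, with a p-value cutoff of 1e-05 and at most 1 tag per position. The deposited columns are the raw count of tags per peak, called length and summit in bp, a score of -10 times log10 of p per the file headers, and a fold enrichment ratio that the authors' caller took over background. The authors deposited a percent false discovery rate too, unused here like the bed files.

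Peaks sharing at least 1 base were merged over the 12 lists. Tag counts were tested with edgeR 4.0.16 (TMM, robust quasi-likelihood test) in R 4.3.3, log2 lengths, tags per kb and fold enrichments with limma 3.58.1 (trend, robust), each across all regions or gene windows found in all 12 lists. Adjustment was by Benjamini-Hochberg. The SE of a tag change is its size divided by the root of F. DESeq2 1.42.0 was an alternative, and the scripts were tested on simulated data. Gene spans came from RefSeq GRCm38.p6 (mm10 coordinates). The start region of a gene overlaps its promoter window, or else is the region with the most tags in its span. All 10 genes are named, and of the further pathway genes those past an adjusted p of 0.05. Acacb, Acsl3, Ppara, Ppargc1a and Cd36 were named after their values were seen. One pathway gene is not reported here. The oxidation genes, the further list and the markers were chosen with earlier results of these data known. Other alternatives were a stricter score, merging at 500 bp, a mean of at least 50 tags, library totals, 1 kb and gene-span windows, a replicate block, 9 libraries of 49 bp tags, and leaving out each library. Depth limits the weak regions most.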

Additional observations from a re-analysis of the deposited data

Results flagged for a closer look

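The called length of the Cpt2 start region in d22 1 was 4253 bp, and the other 5 d22 libraries had 2446 to 3065 bp. Its gap to the nearest of them was 0.657 of the range of the group, above Dixon's 95% limit for 6 samples. Tags in the same library were not apart from the rest (156 CPM, against 131 to 197 CPM over the d22 group). Of 54 groups checked (tags, length and fold enrichment of 9 start regions in each title group) this was the 1 beyond the limit, and chance alone puts about 1 in 20 groups there.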

How the results depend on the processing

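Tags were lower in d22 at 9 of 9 start regions in each of the 19 alternatives that gave a value, and at 9 of 9 below the median of all regions. Counts of calls moved more. With DESeq2, 2 member regions (both start regions) and 3 windows passed, against 272 of all 12375 regions and 263 of all 12416 windows. With library totals as the only scaling, 5 regions (4 of them start regions) passed, against 454 of all 12375 regions. Under it 6 windows and 9 pathway windows passed, and the share of all windows is not given here. That scaling put the median of all regions at -0.22, with 87.7% of them negative, and of the start regions at -0.45. The other alternatives called 0 of the member windows and regions. Calls of length, tags per kb and occupancy stayed at 0.

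Fold enrichment passed at 7 start regions and 7 windows, but with centring at 3 and 2. Centring called 1222 of all 12375 regions. Leaving out 1 library gave 3 to 7 start regions and 2 to 8 windows. Pathway windows called numbered 4, with 1 to 4 when a library was left out, 1 with the gene span only and 0 with 49 bp tags. Signs turned for Cpt2 fold enrichment (0.25 centred, and -0.12 to 0.027 with a library left out, above 0 without d22 3 or pbs 3), Acadm length (-0.20 to 0.096 with a library left out, above 0 without d22 3, d22 5 or pbs 1), Acadm window tags (0.035 in the gene span, 0.020 in 1 kb) and Etfdh window tags (0.027 in the gene span). At Etfdh, peaks upstream of the start were called separately in every pbs library and in d22 1, d22 2 and d22 5. The gene span leaves those out. In d22 3, d22 4 and d22 6 the upstream stretch was joined to the start peak and was kept. The cause of the turned signs was not tested. No start region had 1 peak in every library, so that alternative gave none.

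With the replicate block, fold enrichment passed at 3 start regions and 2 windows, and 2 pathway windows passed. Other counts were the same. Counting start regions and pathway windows under the alternatives was chosen after seeing the data. Whether numbers in the titles pair the libraries cannot be told from 6 same-numbered pairs. Correlations of their deviations ran from -0.0067 to 0.157 (median 0.043). Those of the 30 different-numbered pairs ran from -0.22 to 0.19 (median -0.00069).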
